A study of Rattus norvegicus with 58 samples.

Results

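Of the 32545 rat genes counted, 311 had a level in sarcopenic gastrocnemius that was 0.5 or less of the adult level, and these genes are described here. They were chosen by a rule on 2 groups of libraries, gastrocnemius of 8 and of 24 months. A level is the number of reads divided by the library's size factor, and the rule asked for an 8-month median of at least 50 such normalised reads, which 11096 genes reached, and for a ratio of the 24-month to the 8-month median (each plus 1) of 0.5 or less. The ratio was thus fixed by the choice and is given as a description with no test. Every member passed the filter on low values for the fits, which asked for 20 reads in at least 1 library. The behaviour of these genes at 18 months and in a forelimb muscle of the same rats was not used by the rule.

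The libraries were made from gastrocnemius, a hindlimb muscle that wastes with age in this model, and from triceps brachii, a forelimb muscle of the same animals. Of the 29 male Wistar rats, 10 were adult (8 months), 10 early-sarcopenic (18 months) and 9 sarcopenic (24 months), and each gave both muscles, so there were 58 libraries. No rat carried an engineered allele or received a drug. Per the study's methods the older rats were also sorted by the phenotype of their hindlimb muscles, so age and that phenotype cannot be told apart, and the rats of different ages were different animals.

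Between 11176076 and 72297573 reads were counted on genes per library. Spread between rats of a group was far above counting error, with a chi-square per degree of freedom of at least 10.9. As a check of the tissue, the 4 muscle fibre markers with a symbol (of 13 listed) were high in all groups, with a summed level of at least 78324 normalised reads. These include 3 members, Pygm, Atp2a1 and Myoz1, and all 4 were called lower in gastrocnemius than in triceps brachii at 18 months. Because these are whole pieces of muscle, fewer cells of a type and less RNA per cell cannot be told apart. Some libraries stood apart within their group. At 18 months these were the gastrocnemius of rats 15 and 20, and at 24 months the triceps brachii of rat 42 and, less so, of rat 41. The counts over all members that rest on them are given with and without them. Counts and medians of the gene lists are given with all rats only.

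Adult rat gastrocnemius is made mostly of fast fibres, which split glycogen and glucose to lactate at a high rate, release and take back calcium through a large sarcoplasmic reticulum, and carry fast forms of the contractile proteins. A smaller oxidative compartment burns fat and pyruvate in mitochondria. A group of transcription factors that includes the MEF2 proteins, the E-box binding MyoD family and nuclear receptors such as the oestrogen-related receptors keeps these programmes active, and nerve activity acts on them. Loss of innervation is known to lower many glycolytic and contractile transcripts in muscle.

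The 311 genes made up a large part of the RNA of adult muscle. Their reads were 14.9 ± 1.88% of all counted reads in 8-month gastrocnemius (SD, n = 10 rats), 13.4 ± 3.27% at 18 months (SD, n = 10) and 8.28 ± 1.83% at 24 months (SD, n = 9). In triceps brachii the share was 17.3 ± 1.00%, 17.5 ± 1.37% and 14.7 ± 3.38% at the same ages. The gastrocnemius values of 8 and 24 months follow from the choice of the genes. In gastrocnemius the share ran from 11.8 to 18.0% at 8 months and from 4.39 to 11.3% at 24 months. At 18 months it ran from 8.64 to 17.6%, and the lowest values, 8.64 and 9.24%, came from rats 15 and 20. In 24-month triceps brachii it ran from 7.50 to 18.2%, the lowest being rat 42, and was 15.6 ± 2.17% over the other 8 rats.

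The level of each gene in a library was also set against its 8-month gastrocnemius median, and the median over the 311 genes was taken. This value lay between 0.937 and 1.09 in 8-month gastrocnemius, between 0.484 and 0.974 at 18 months and between 0.281 and 0.721 at 24 months. Triceps brachii stayed between 0.869 and 1.15 at 8 months and between 0.889 and 1.12 at 18 months. At 24 months it lay between 0.535 (rat 42) and 0.973, with rat 41 at 0.750 as the lowest of the others. The 18-month gastrocnemius therefore spanned a range from levels near the adult ones to levels seen at 24 months, while no triceps brachii of 18 months fell below the lowest of 8 months.

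**Figure D1:**
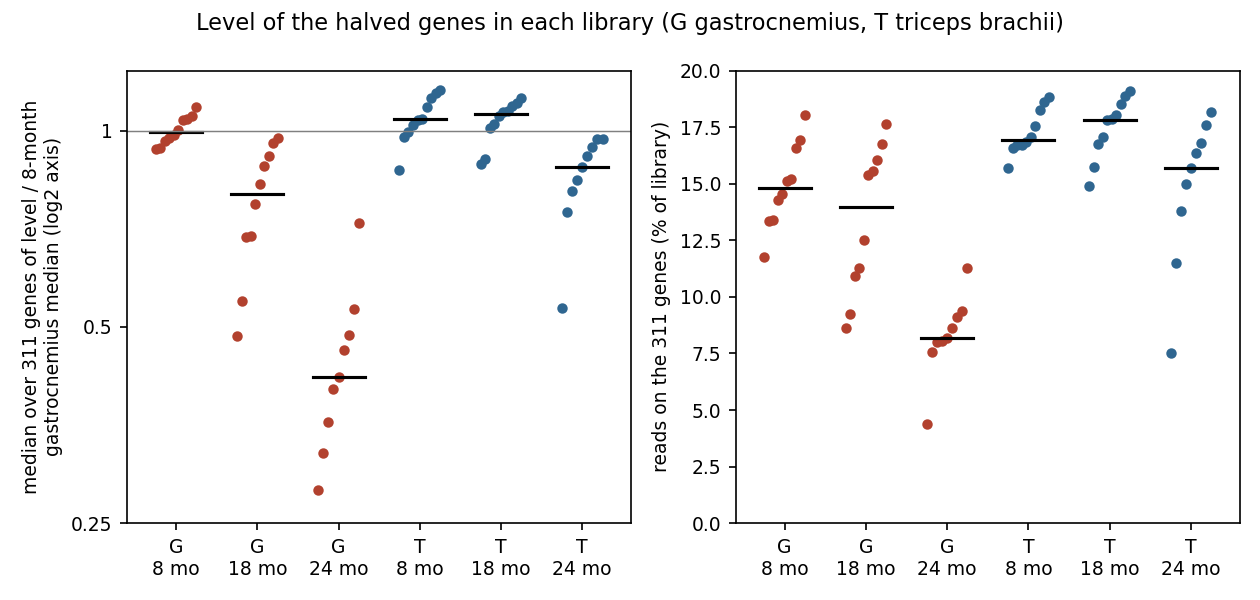
Level of the 311 genes in each library, as the median ratio to the 8-month gastrocnemius median (left, log2 axis), and share of all reads on these genes in percent (right), by age and muscle, 1 point for each rat and a line at the group median. In the left panel the 24-month gastrocnemius lies between 0.281 and 0.721, and the rats with the lowest 18-month gastrocnemius values are 20 (0.484) and 15 (0.548).

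The ratio of 24 to 8 months in gastrocnemius ran over the members from 0.104 up to the limit of the rule, with a median of 0.430 and quartiles of 0.356 and 0.469, so most members lie near that limit. Just inside it were the ATP synthase subunit gene Atp5g1 (0.4997) and the muscle glycogen synthase gene Gys1 (0.4997). The 3 genes just outside were ENSRNOG00000060057 (0.5002), ENSRNOG00000004863 (0.5004) and ENSRNOG00000010068 (0.5004). Adult levels of the members spanned 50.8 to 992054 normalised reads, with a median of 1069. In the fit 298 of the 311 members were called lower from 8 to 24 months, against 21.6% of all genes tested, and in 112 members no 24-month library reached the lowest 8-month library, against 3.35% of all genes, with 3.31% of all genes apart in the other direction. These counts repeat the rule and nothing is read from them.

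At 18 months the members as a group had moved only part of the way. The median ratio of 18 to 8 months in gastrocnemius was 0.781 (quartiles 0.702 and 0.859), against 0.987 for all 11096 genes at the level threshold. By 18 months 14 members had a ratio of 0.5 or less, 99 lay between 0.5 and 0.75, 185 lay between 0.75 and 1, and 13 were at 1 or above. Expressed as a percent of the log2 fall from 8 to 24 months, the median member had reached 26.4% at 18 months, and 267 of 311 members had covered less than 50%.

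In the fit, edgeR's quasi-likelihood test at a Benjamini-Hochberg adjusted p under 0.05, 39 of the 311 members were called lower from 8 to 18 months and 0 higher, against 1.22% lower and 3.41% higher among all genes tested. At an unadjusted p under 0.05 these counts were 149 and 0, against 8.31% and 10.7% of all genes. The median log2 fold change of the members was -0.34, against 0.01 for all genes, and 300 members had a negative sign. The libraries of both ages overlapped in every member, so 0 stood fully apart, against 0.0335% of all genes. This comparison shares its 8-month libraries with the rule, so it describes timing and is no independent support for a fall. It also rested on few rats. The count was 18 without rat 15 (0.723% of all genes) and without rat 20 (0.569%), and 25 without rat 1 (0.890%) and without rat 11 (0.883%), and without both rat 15 and rat 20 it was 4, against 0.234% of all genes, with a median of -0.24.

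From 18 to 24 months, 243 members were called lower and 0 higher (0 also at an unadjusted p under 0.05), against 12.0% lower and 8.80% higher of all genes tested, with a median log2 fold change of -0.80. This step shares its 24-month libraries with the rule. The median ratio of 24 to 18 months was 0.533, so the larger part of the fall in the typical member lay in the later interval.

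**Figure D2:**
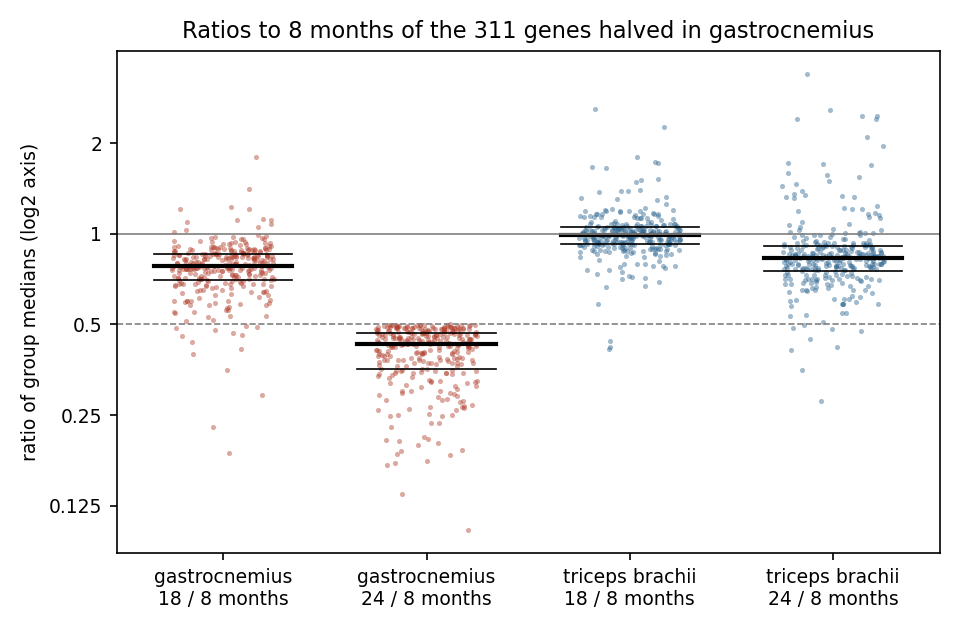
Ratios of group medians for the 311 members, for gastrocnemius and triceps brachii at 18 and 24 months relative to 8 months of the same muscle (log2 axis), 1 point for each member, with thick lines at the medians, thin lines at the quartiles and the dashed line at 0.5. The medians are 0.781 and 0.430 in gastrocnemius and 0.987 and 0.833 in triceps brachii.

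The 5 members with a symbol that were lowest at 18 months relative to 8 months were Aqp4, AABR07034455.2, RGD1562029, Nrtn and Gcgr. Aqp4, which encodes the main water channel in the membrane of fast fibres, had levels of 1660, 3985 and 4824 normalised reads in 8-month gastrocnemius (lowest, median and highest rat), 457, 1161 and 3398 at 18 months and 244, 827 and 2308 at 24 months. The 8- and 18-month groups overlapped, but the 18-month median lay below every 8-month library. The log2 fold change from 8 to 18 months was -1.07 ± 0.29 (SE; edgeR, adjusted p = 0.0172), and its ratio of medians was 0.292.

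In triceps brachii Aqp4 ran from 3536 to 6062 at 8 months, from 3221 to 5708 at 18 months and from 1590 to 9570 at 24 months. Its triceps medians were 4889, 4645 and 4235, and the 24-month range contained both earlier ranges.

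RGD1562029 is named by its database symbol. It had levels of 36.5, 56.6 and 92.2 in 8-month gastrocnemius, 14.1, 26.5 and 41.5 at 18 months, and 4.43, 10.6 and 37.4 at 24 months. The lowest 8-month rat lay inside the 18-month range, and the change from 8 to 18 months was called (log2 fold change -1.09 ± 0.27, SE; adjusted p = 0.00884 in edgeR). Nrtn, the gene of the neurotrophic factor neurturin, had medians of 60.0, 28.8 and 15.2 in gastrocnemius at the 3 ages and of 24.3, 40.9 and 48.6 in triceps brachii. Its change from 8 to 18 months in gastrocnemius was not called (log2 fold change -0.77 ± 0.33, SE; adjusted p = 0.186, edgeR). AABR07034455.2 and Gcgr, the gene of the glucagon receptor, had 18-month ratios of 0.398 and 0.515, and neither change was called (edgeR adjusted p of 0.219 and 0.255).

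The 5 latest members with a symbol, by the same ratio, were Fanca, Kcnh1, Nfasc, Barx2 and AABR07030854.2, whose 18-month ratios were 1.79, 1.40, 1.23, 1.21 and 1.21. Fanca, a gene of the Fanconi anaemia DNA repair pathway, had gastrocnemius levels of 27.0, 60.4 and 288 at 8 months, 22.8, 109 and 304 at 18 months and 22.1, 27.4 and 61.6 at 24 months. Its ranges at 8 and 18 months overlapped widely and the change was not called (adjusted p = 0.574 in edgeR). Kcnh1, which encodes a voltage-gated potassium channel, was the only member called from 8 to 18 months in triceps brachii.

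The contrast of both muscles at 18 months used no library of the rule. Its fit, however, took dispersions and scaling from all libraries, those of the rule among them. Gastrocnemius was set against triceps brachii of the same rat, with the rat as a block. Here 154 of the 311 members (49.5%) were called lower in gastrocnemius and 3 higher, against 8.48% lower and 9.53% higher of all genes tested, and against 10.7% lower and 9.67% higher of the genes at the level threshold. The median log2 difference, gastrocnemius minus triceps brachii, was -0.43 over the members and 0.02 over all genes. A negative sign was seen in 267 of the 311 members, against 46.2% of all genes. In 46 members gastrocnemius lay below triceps brachii in all 10 rats, against 1.95% of all genes, and in 87 it did so in at least 9, against 6.28%. For 9 members no gastrocnemius library of 18 months reached the lowest triceps brachii library, against 0.167% of all genes.

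The count of 154 was lower when the rats that stood apart were left out, 119 members without rat 15 (6.93% of all genes) and 121 without rat 20 (7.15%), and 88 without both, when 6.08% of all genes were called lower and the members' median was -0.26. With both left out 244 members had a negative sign. Without the rat as a block 96 members were called lower, against 5.96% of all genes. A difference at 18 months may already be there at 8 months, so the adult difference stands beside it. At 8 months 18 members were called lower and 21 called higher in gastrocnemius, against 1.85% and 2.31% of all genes, with a median of -0.09, and 0 had all gastrocnemius libraries below all triceps brachii libraries, against 0.0870%. That comparison uses 8-month libraries of the rule.

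**Figure D3:**
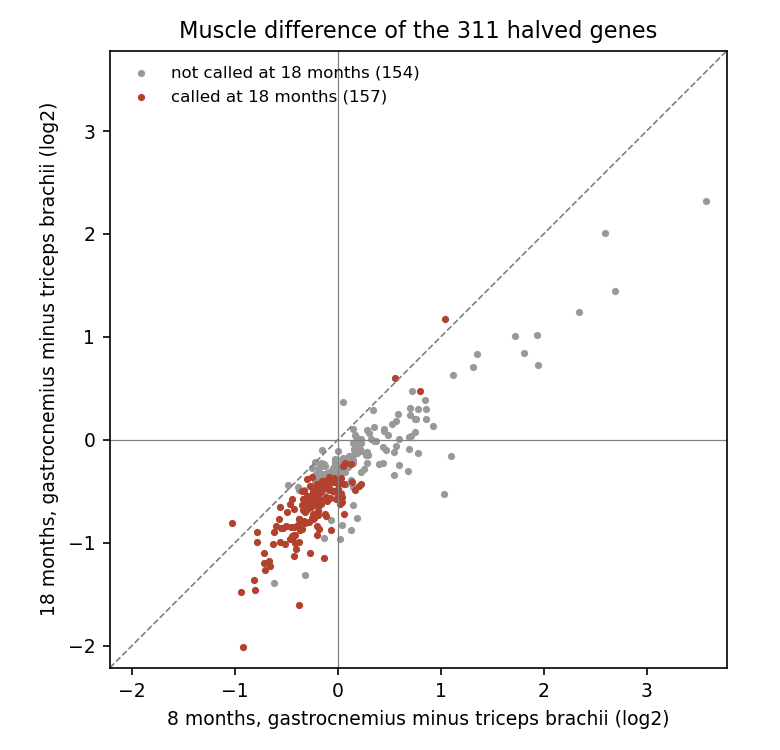
Log2 difference between gastrocnemius and triceps brachii of the same rats at 8 months (x axis) and 18 months (y axis), 1 point for each member, red where called at 18 months, with a dashed line where both ages are equal. The median is -0.09 at 8 months and -0.43 at 18 months, and 154 members are called lower in gastrocnemius at 18 months.

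In triceps brachii itself few members were called with age after adjustment, although most had a negative sign from 8 to 24 months. From 8 to 24 months 11 members (3.54%) were called lower and 2 higher, against 0.636% lower and 2.08% higher of all genes tested (0.793% and 1.87% at the level threshold). At an unadjusted p under 0.05 the counts were 111 lower and 12 higher, against 7.09% and 12.6% of all genes. The median log2 fold change was -0.28 over the members and 0.03 over all genes, and 265 members had a negative sign, against 44.5% of all genes. The ratio of 24 to 8 months in triceps brachii had a median of 0.833 (quartiles 0.751 and 0.914), against 0.990 for genes at the level threshold. It was below 1 in 264 members and 0.5 or less in 9. In 0 members did the 24-month libraries all lie below the 8-month ones, against 0.00669% of all genes.

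The triceps counts depended on which rats were in the fit. Without rat 42, 3 members were called lower (0.161% of all genes) and the members' median was -0.22, and without rat 41 it was also 3 (0.281%). Leaving out 8-month rats lowered the count too, to 2 (0.261%) without rat 7, 4 without rat 6 (0.469%), 5 without each of rats 1, 2 and 3 (0.355 to 0.408%), and 6 without each of rats 4 and 5 (0.569% and 0.348%). It was 5 without rat 44 (0.497%), 6 without each of rats 12, 13 and 45 (0.448 to 0.602%), and 7 without each of rats 10, 19 and 46 (0.502 to 0.582%). The count was 17 without rat 49 (0.997%) and 20 without rat 47 (1.38%). Without rats 41 and 42 the count was 1 lower (0.0471% of all genes) and 0 higher, with a median of -0.19 and 263 members with a negative sign.

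From 8 to 18 months in triceps brachii 0 members were called lower and 1 higher, against 0.0201% and 0.0268% of all genes, and 6 and 5 passed an unadjusted p under 0.05, against 1.96% and 3.47%. From 18 to 24 months 0 were called in either direction, against 0.0134% lower and 0.181% higher, with 88 lower and 7 higher at an unadjusted p under 0.05, against 5.80% and 9.23%. DESeq2 called 1 lower in each interval. The median log2 fold changes were -0.03 and -0.27, so the small shift of the members in triceps brachii lay in the later interval too.

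The change from 8 to 24 months was more negative in gastrocnemius than in triceps brachii for 251 members by the interaction test and less negative for 0 (0 also at an unadjusted p under 0.05), against 8.75% and 5.69% of all genes tested. It contains the contrast of the rule, and nothing is read from it. All 311 members had a higher ratio in triceps brachii than in gastrocnemius, which the rule favours.

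Values of other gene lists are set beside the members here. The denervation and growth arrest list, of which 15 of 24 genes had a symbol, holds no member. Its summed level was 5075 to 7545 normalised reads in 8-month gastrocnemius, 11037 to 42073 at 18 months and 16161 to 64509 at 24 months, with 0 of the 15 genes without a read. At 18 months the highest sums came from rats 20 (42073), 11 (35008) and 15 (30860), and rats 15 and 20 also had the lowest levels of the members. Rat 16, which had the third lowest level of the members (0.687, next to rat 11 at 0.689), had a sum of 13319, among the lower ones. At 24 months the lowest sum, 16161, came from rat 47, which had the highest level of the members. In triceps brachii the sum was 5498 to 10181 at 8 months, 5823 to 9397 at 18 months and 6025 to 14148 at 24 months. There rat 42, lowest for the members, had a sum of 12493, while rats 50 (14148) and 46 (14143) had higher sums at member levels of 0.914 and 0.807, and rat 41 had a sum of 7285 at a member level of 0.750. Of these 15 genes 12 were called higher in gastrocnemius from 8 to 18 months, against 3.41% of all genes tested. At 18 months 12 were called higher in gastrocnemius than in triceps brachii (9.53% of all genes). In triceps brachii 6 were called higher from 8 to 24 months (2.08%). The 15 had symbols from the study's table of genes whose ageing differed between the muscles, so these counts are no independent evidence. The part of denervation in the level of the members was not tested.

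Markers of other cells moved too. The 8 immune markers with a symbol, of 12 listed, summed to 566 to 847 normalised reads in gastrocnemius at 8 months, 640 to 1266 at 18 months and 942 to 1895 at 24 months, and in triceps brachii to 470 to 1050, 518 to 952 and 625 to 1253. The 9 fibroblast and matrix markers, of 12 listed, ran from 26772 to 45958, from 19716 to 64608 and from 43528 to 92270 in gastrocnemius, and from 28958 to 84188, 15654 to 75766 and 27681 to 52083 in triceps brachii. The 12 endothelial markers, of 17 listed, fell from a range of 12057 to 18937 at 8 months to 9367 to 14840 at 24 months in gastrocnemius. Of these 10 were called lower there, against 21.6% of all genes tested. In 24-month triceps brachii their sum ranged from 11928 to 21435. Of the Schwann cell and nerve list 1 of 10 genes had a symbol, Cnp, which encodes a myelin enzyme. Its level was 366 to 615 in 8-month gastrocnemius, 482 to 1153 at 18 months and 920 to 2449 at 24 months, and 359 to 528, 354 to 553 and 425 to 876 in triceps brachii, where rat 42 was the highest at 24 months. It was called higher in gastrocnemius from 8 to 18 and from 8 to 24 months and against triceps brachii at 18 months. Of the slow fibre and fat lists 0 of 9 and 0 of 7 genes had a symbol, so these could not be followed. None of these lists holds a member, and their part in the result was not tested.

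Symbols were at hand only for genes in the study's table of genes whose ageing differed between the muscles, so 223 of the 311 members have a symbol and 88 do not. The naming is therefore tied to these same libraries, and no count over a gene list, given above or below, is independent evidence of its direction. At 18 months 126 of the 223 members with a symbol (56.5%) were called lower in gastrocnemius than in triceps brachii, and 28 of the 88 without (31.8%). Over all genes tested the share was 8.48%, and over all 311 members 49.5%. The counts of list members called at 18 months, given below, stand beside these shares. In triceps brachii 6 of 223 (2.69%) and 5 of 88 (5.68%) were called lower from 8 to 24 months, against 0.636% of all genes tested.

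The promoters of members that fell together were read from RefSeq (build GRCr8). A single promoter was found for 149 of the 223 symbols, and the 250 bases before the start were searched on both strands. The pattern CTANNNNTAG, which includes the MEF2 consensus but is wider, was present in 9 of the 149 (6.04%), against 3.37% of all 24206 promoters. With only A or T at its 4 middle positions, as in the consensus, it was present in 2 (1.34%, against 0.549%). The E-box CAGCTG was in 34 (22.8%, against 11.9%) and the E-box CACGTG in 16 (10.7%, against 5.86%). The MEF3 sequence TCAGGTTTC was in 0 (against 0.413%) and the oestrogen-related receptor motif AAAGGTCA in 3 (2.01%, against 1.05%). In 0 of the 149 promoters did matches of different motifs overlap, against 5 of all promoters. A match is a description of letters and not of a bound site. The 4 promoters printed here carry CTANNNNTAG, with only A or T in the middle in Asb18 and Clcn1 but not in Perm1 and Ckmt2. They were chosen because they carry it and belong to members on the gene lists described below. Not every list member that carries it is printed. The printed promoters lie on GRCr8 at chr5:172081999-172082248 (plus strand, Perm1), chr9:98043471-98043720 (minus strand, Asb18), chr2:24845512-24845761 (minus strand, Ckmt2) and chr4:72138928-72139177 (plus strand, Clcn1). Capitals mark CTANNNNTAG and, in Ckmt2, also CAGCTG.
Perm1: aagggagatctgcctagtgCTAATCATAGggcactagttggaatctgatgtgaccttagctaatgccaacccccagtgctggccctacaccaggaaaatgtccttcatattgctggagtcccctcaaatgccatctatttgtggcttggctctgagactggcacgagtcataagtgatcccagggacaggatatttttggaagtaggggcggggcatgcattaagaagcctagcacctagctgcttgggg
Asb18: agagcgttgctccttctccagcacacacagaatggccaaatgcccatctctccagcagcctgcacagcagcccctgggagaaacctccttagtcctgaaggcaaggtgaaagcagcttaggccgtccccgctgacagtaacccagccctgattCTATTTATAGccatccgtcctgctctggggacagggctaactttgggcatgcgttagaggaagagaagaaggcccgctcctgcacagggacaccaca
Ckmt2: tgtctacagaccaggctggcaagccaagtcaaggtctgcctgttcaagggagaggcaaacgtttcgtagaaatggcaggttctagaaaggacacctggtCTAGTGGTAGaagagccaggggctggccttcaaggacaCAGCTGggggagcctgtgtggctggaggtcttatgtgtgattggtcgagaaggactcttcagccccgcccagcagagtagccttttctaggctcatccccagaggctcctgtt
Clcn1: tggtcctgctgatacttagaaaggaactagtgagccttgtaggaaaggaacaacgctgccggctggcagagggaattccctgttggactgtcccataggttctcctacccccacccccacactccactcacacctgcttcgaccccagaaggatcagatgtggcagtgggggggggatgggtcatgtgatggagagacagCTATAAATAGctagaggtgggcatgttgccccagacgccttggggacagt

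Enzymes and transporters of carbohydrate handling formed the largest named group. Of 43 genes listed, 29 had a symbol, on 30 identifiers, and 23 of these identifiers were members. Many steps of the path from glycogen to lactate are among them, with Pygm, Phka1, Phkb and Phkg1 for glycogen breakdown, Gys1 and Ugp2 for its synthesis, and Gpi, Pfkm, Aldoa, Gapdh, Pgk1, Eno3, Pkm (on 2 identifiers) and Ldha for glycolysis. Their 24-month ratios in gastrocnemius had a minimum of 0.249 and a median of 0.381, their 18-month ratios ran from 0.628 to 0.960 (median 0.847) and their 24-month ratios in triceps brachii from 0.748 to 1.03 (median 0.830). At 18 months 15 of the 23 were called lower in gastrocnemius than in triceps brachii and 0 higher, with a median log2 difference of -0.45. The share called lower was 49.5% over all members and 8.48% over all genes tested. Of all 30 identifiers on the list 18 were called lower and 0 higher. In triceps brachii 0 of the 23 were called from 8 to 24 months in either direction by edgeR, DESeq2 or voom, while 12 were lower and 0 higher at an unadjusted p under 0.05 in edgeR, with a median log2 fold change of -0.35.

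Pfkm encodes the muscle form of phosphofructokinase, which commits sugar to glycolysis. Its level in gastrocnemius was 66373, 85043 and 106082 normalised reads at 8 months (lowest, median and highest rat), 35340, 68274 and 89438 at 18 months and 12966, 26589 and 50526 at 24 months. In triceps brachii it was 77164, 97419 and 115953, then 66587, 99826 and 111587, then 29694, 82779 and 97795 at the same ages. Gastrocnemius ranges of 8 and 24 months did not overlap, and those of triceps brachii did.

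At 18 months Pfkm was lower in gastrocnemius than in triceps brachii in 9 of 10 rats, with a log2 difference of -0.70 ± 0.16 (SE; adjusted p = 0.00172, edgeR), against -0.19 at 8 months (adjusted p = 0.581).

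Gpd1, the cytosolic glycerol-3-phosphate dehydrogenase that carries reducing power from glycolysis, had the lowest ratio of this group (0.249). Its gastrocnemius levels were 15929, 22769 and 30620 at 8 months, 5641, 19057 and 27164 at 18 months and 1411, 5660 and 13216 at 24 months. In triceps brachii its medians were 27346, 26096 and 21966, and rat 42 held the 24-month minimum of 5199. The 18-month range of gastrocnemius thus reached down into the 24-month range while its median stayed near the adult one. Gastrocnemius lay below triceps brachii in 7 of 10 rats at 18 months (log2 difference -0.76 ± 0.22, SE; edgeR adjusted p = 0.0154).

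Pygm, the muscle glycogen phosphorylase, was among the most abundant members. Its 18-month levels in gastrocnemius were 95342, 205013 and 268281, against 157907, 216140 and 293481 at 8 months and 34384, 79993 and 157453 at 24 months. The highest rat of 24 months was just below the lowest of 8 months, and the 18-month median was close to that of 8 months. In triceps brachii its medians were 255260, 272494 and 216638 at the 3 ages. The 18-month difference between the muscles was -0.57 ± 0.17 on the log2 scale (SE; adjusted p = 0.0158, edgeR).

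Slc16a3, the lactate exporter of fast fibres, fell to a ratio of 0.281 with 18-month levels of 2853, 5951 and 8469 against 5225, 6882 and 9525 at 8 months and 1026, 1930 and 4232 at 24 months. Its difference between the muscles at 18 months was not called (log2 difference -0.33 ± 0.16, SE; adjusted p = 0.15 in edgeR). Mlxipl encodes ChREBP, the transcription factor that responds to glucose, and its ratio was 0.309. It had levels of 1005, 1233 and 1380 in 8-month gastrocnemius, 357, 915 and 1390 at 18 months and 215, 380 and 1095 at 24 months, and rat 47 was the only 24-month rat inside the adult range. Its medians in triceps brachii were 1033, 971 and 909, and the 18-month difference between the muscles was not called (adjusted p = 0.331, edgeR).

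Among ion channels and proteins of excitation-contraction coupling 10 of 21 genes with a symbol (40 listed) were members. Their median ratio was 0.449 at 24 months and 0.836 at 18 months in gastrocnemius, and 0.815 at 24 months in triceps brachii. At 18 months 7 of the 10 were called lower in gastrocnemius than in triceps brachii and 0 higher, against 49.5% lower over all members. The median log2 difference of the 10 was -0.64, and over the list of 21 the counts were 11 lower and 3 higher. Members include the voltage sensor subunit Cacna1s, the chloride channel Clcn1, the sodium channel subunit Scn4b and the potassium channels Kcna7, Kcnj11 and Kcnj12. From 8 to 24 months 0 of the 10 were called in triceps brachii by edgeR, DESeq2 or voom, with 4 lower and 0 higher at an unadjusted p under 0.05 in edgeR.

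Atp2a1 encodes SERCA1, the calcium pump of fast fibres. Its levels in gastrocnemius were 69403, 102859 and 156657 at 8 months, 44266, 87039 and 124322 at 18 months and 18489, 39247 and 66460 at 24 months, with no overlap between 8 and 24 months. In triceps brachii they were 129385, 143414 and 177636, then 106042, 146583 and 190193, then 43828, 114001 and 154489. The 18-month difference between the muscles was -0.85 ± 0.16 (log2, SE; edgeR adjusted p = 0.00037), seen in 8 of 10 rats. At 8 months the difference was -0.53 and missed the threshold (adjusted p = 0.055).

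Dhrs7c, a protein of the sarcoplasmic reticulum, had medians of 6015, 4607 and 1812 in gastrocnemius and 8193, 8278 and 6399 in triceps brachii at the 3 ages. Its lowest 18-month triceps brachii (5655) lay below the highest 18-month gastrocnemius (6614), and gastrocnemius was lower in 9 of 10 rats (log2 difference -0.96 ± 0.16, SE; adjusted p = 5.41e-05, edgeR). Kcna7, a voltage-gated potassium channel, was lower in gastrocnemius in all 10 rats at 18 months (log2 difference -0.73 ± 0.13, SE; adjusted p = 0.000189, edgeR). It was the only member of this group called lower from 8 to 18 months in gastrocnemius, where its levels went from 2455, 2786 and 3698 to 1311, 2099 and 3026 (edgeR adjusted p = 0.0182). Cacng7, a calcium channel subunit gene, had the lowest ratio of the group (0.292), but an 18-month ratio of 0.903.

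Sarcomere and cytoskeleton genes gave 9 members of 22 genes with a symbol (42 listed). Their median ratios were 0.430 at 24 months and 0.876 at 18 months in gastrocnemius and 0.777 at 24 months in triceps brachii. Of the 9, 6 were called lower in gastrocnemius than in triceps brachii at 18 months and 0 higher, against 49.5% lower over all members. The median log2 difference of the 9 was -0.48, and over the 22 the counts were 9 lower and 2 higher. Actn3, the alpha-actinin of fast fibres, and the Z-disc proteins Myoz1 and Myoz3 are among them. In this group 3 members, Mylk2, Myoz1 and, named after its values were seen, Actn3, were already called lower in gastrocnemius at 8 months.

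Mylk2, the myosin light chain kinase of skeletal muscle, had levels of 24980, 31461 and 51754 in 8-month gastrocnemius, 10927, 24214 and 35165 at 18 months and 5405, 9034 and 13592 at 24 months. In triceps brachii they were 43672, 51037 and 59493, then 36826, 52283 and 58425, then 16916, 35819 and 53109. At 18 months all 10 gastrocnemius libraries lay below all 10 triceps brachii libraries.

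The log2 difference of Mylk2 between the muscles was -1.23 ± 0.17 at 18 months (SE; adjusted p = 5.16e-06, edgeR) and -0.66 at 8 months (adjusted p = 0.0197). Myoz1 showed a similar order, with 18-month levels of 28459, 52907 and 87826 in gastrocnemius and of 78912, 106585 and 140878 in triceps brachii, lower in gastrocnemius in 10 of 10 rats. Its log2 difference was -1.01 ± 0.16 (SE; adjusted p = 5.1e-05, edgeR) at 18 months and -0.63 (adjusted p = 0.0241) at 8 months. Tuba8, an alpha-tubulin gene, had the lowest ratio of the group (0.279) and yet an 18-month ratio of 0.930.

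Mybpc2, the fast form of myosin binding protein C, kept an 18-month gastrocnemius median of 84820 against 101280 at 8 months and 38786 at 24 months. Its range at 18 months, 43622 to 141848, ended just under the top of the adult range (143360) and passed below its bottom (59535). The difference from triceps brachii at 18 months was called with a log2 value of -0.63 ± 0.21 (SE; edgeR adjusted p = 0.0358). Cmya5, which encodes the costamere protein myospryn, had ratios of 0.429 at 24 months and 0.770 at 18 months.

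Asb proteins are substrate receptors of cullin ubiquitin ligases, several of them made mainly in muscle. Together with other ligase components they gave 10 members of 33 genes with a symbol (39 listed): Asb2, Asb4, Asb10, Asb11, Asb15, Asb18, Klhl21, Klhl31, Klhl38 and Nhlrc1. Their median ratios were 0.372 at 24 months and 0.768 at 18 months in gastrocnemius and 0.792 at 24 months in triceps brachii. At 18 months 5 of the 10 were called lower in gastrocnemius than in triceps brachii and 0 higher, near the share of 49.5% lower over all members. The median log2 difference of the 10 was -0.34, and over the list of 33 the counts were 9 lower and 6 higher.

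Asb2, which targets filamins, had levels of 6761, 15557 and 20782 in 8-month gastrocnemius, 6150, 12003 and 20771 at 18 months and 3532, 4352 and 9218 at 24 months. In triceps brachii the medians were 14379, 13132 and 9729. The 24-month range of gastrocnemius overlapped with the 8-month range, and the 18-month difference between the muscles was not called (log2 difference -0.16 ± 0.11, SE; adjusted p = 0.347, edgeR).

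Asb10 showed the other pattern, with 18-month levels of 610, 1021 and 1431 in gastrocnemius and of 1063, 1516 and 1868 in triceps brachii. It was lower in gastrocnemius in all 10 rats (log2 difference -0.56 ± 0.12, SE; edgeR adjusted p = 0.00155), and the difference at 8 months was 0.04 (adjusted p = 0.917). Asb18 had the lowest ratio of the group (0.263) and was higher in gastrocnemius than in triceps brachii at 8 months (log2 difference 0.86, adjusted p = 0.0305, edgeR). Its difference of 0.20 at 18 months was not called (adjusted p = 0.588).

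Mitochondrial energy genes gave only 9 members of 68 identifiers tested (73 genes listed). From 8 to 24 months 65 of the 68 were called lower in gastrocnemius, against 21.6% of all genes tested. The list median log2 fold change was -0.62. The 68 had symbols from the study's table of genes whose ageing differed between the muscles, so that count is no independent evidence of a fall of these genes. Their members had a median 24-month ratio of 0.469, a median 18-month ratio of 0.770 and a median 24-month ratio of 0.949 in triceps brachii. At 18 months 1 of the 9 was called lower in gastrocnemius than in triceps brachii and 0 higher, against 49.5% lower over all members. The median log2 difference of the 9 was -0.01, and over the 68 the counts were 3 lower and 2 higher. That 1 member was Mss51, a gene known from mitochondrial metabolism in fast muscle.

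Mss51 had 18-month levels of 2260, 7407 and 10966 in gastrocnemius and of 13189, 16195 and 18983 in triceps brachii, with no overlap. Its log2 difference was -1.46 ± 0.22 (SE; adjusted p = 2.27e-05, edgeR) at 18 months and -0.81 (adjusted p = 0.0284) at 8 months. In gastrocnemius it went from 7334, 8912 and 15382 at 8 months to 759, 2227 and 2913 at 24 months.

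Ckmt2, the mitochondrial creatine kinase of striated muscle, went the other way between the muscles. Its 8-month levels were 22100, 33590 and 40195 in gastrocnemius and 14044, 17698 and 24386 in triceps brachii, and the difference of 0.78 was called (edgeR adjusted p = 0.0296). By 24 months its gastrocnemius levels were 5583, 13193 and 35225 and its triceps brachii levels 11576, 20372 and 28425. Bdh1, an enzyme of ketone body use, was low and varied widely. Its triceps brachii levels at 24 months were 10.9, 53.9 and 603, the highest being rat 42, against 4.24, 15.1 and 103 at 8 months, and the change was not called by edgeR (log2 fold change 1.87 ± 0.57, SE; adjusted p = 0.0554) but was by DESeq2. Mdh1, the cytosolic malate dehydrogenase, had ratios of 0.454 in gastrocnemius and 1.33 in triceps brachii at 24 months.

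Lipid handling genes gave 4 members of 33 with a symbol (51 listed), Plin4, Acss1, Fitm2 and Acot13. At 18 months 1 of these 4 was called lower in gastrocnemius than in triceps brachii, against 2 lower and 6 higher over the list. Plin4, a lipid droplet coat protein, had levels of 2937, 3585 and 4801 in 8-month gastrocnemius, 1747, 2528 and 4249 at 18 months and 760, 1252 and 2429 at 24 months. In triceps brachii the medians were 3337, 3597 and 3313 (log2 fold change from 8 to 24 months -0.00 ± 0.16, SE; adjusted p = 0.998, edgeR). The difference at 18 months was -0.41 ± 0.14 (log2, SE; adjusted p = 0.0389, edgeR).

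Acss1, which makes acetyl-CoA from acetate in mitochondria, had medians of 2168, 1545 and 886 in gastrocnemius and of 1307, 1818 and 2249 in triceps brachii. The change in triceps brachii from 8 to 24 months missed the threshold (log2 fold change 0.63 ± 0.20, SE; adjusted p = 0.0656, edgeR), while DESeq2 gave an adjusted p of 0.0449. Fitm2, a gene of lipid droplet formation, was called lower from 8 to 18 months in gastrocnemius (log2 fold change -0.69, adjusted p = 0.0064, edgeR), and Acot13, an acyl-CoA thioesterase gene, had an 18-month ratio of 0.694.

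Amino acid and polyamine genes gave 2 members of 33 with a symbol (46 listed), the transaminase genes Gpt2 and Got1. Gpt2 had medians of 2002, 1506 and 680 in gastrocnemius and 2539, 2481 and 1802 in triceps brachii, where rat 42 held the 24-month minimum of 353. It was lower in gastrocnemius at 18 months in 7 of 10 rats (log2 difference -0.67 ± 0.22, SE; adjusted p = 0.0283, edgeR). Got1 had ratios of 0.463 in gastrocnemius and 0.920 in triceps brachii at 24 months. Over the list of 33, 5 genes were called lower and 5 higher in gastrocnemius at 18 months.

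Regulators of muscle metabolism gave 5 members of 26 with a symbol (44 listed), Perm1, Mlxipl, Gcgr, Nr4a1 and Eya1. Perm1, a muscle regulator that acts with PGC-1 and oestrogen-related receptors, had levels of 2687, 4918 and 5992 in 8-month gastrocnemius, 1119, 3664 and 5008 at 18 months and 743, 1282 and 3693 at 24 months. In triceps brachii its medians were 3416, 3020 and 2903, and the 18-month difference between the muscles was -0.10 ± 0.22 on the log2 scale (SE; adjusted p = 0.794, edgeR).

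Nr4a1, an orphan nuclear receptor induced by activity, had an 18-month ratio of 0.551, with levels of 2859, 5690 and 7253 at 8 months and 1337, 3133 and 7148 at 18 months in gastrocnemius. At 18 months it was lower in gastrocnemius than in triceps brachii in 8 of 10 rats (log2 difference -0.72 ± 0.23, SE; adjusted p = 0.0296, edgeR). Eya1, a transcriptional coactivator that promotes the fast fibre programme, was 1 of the 11 members called lower in triceps brachii (log2 fold change -0.45, adjusted p = 0.0482, edgeR). Over the list of 26, 10 genes were called lower and 4 higher in gastrocnemius at 18 months, and 2 of the 5 members, Nr4a1 and Eya1, were among the former.

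**Figure D4:**
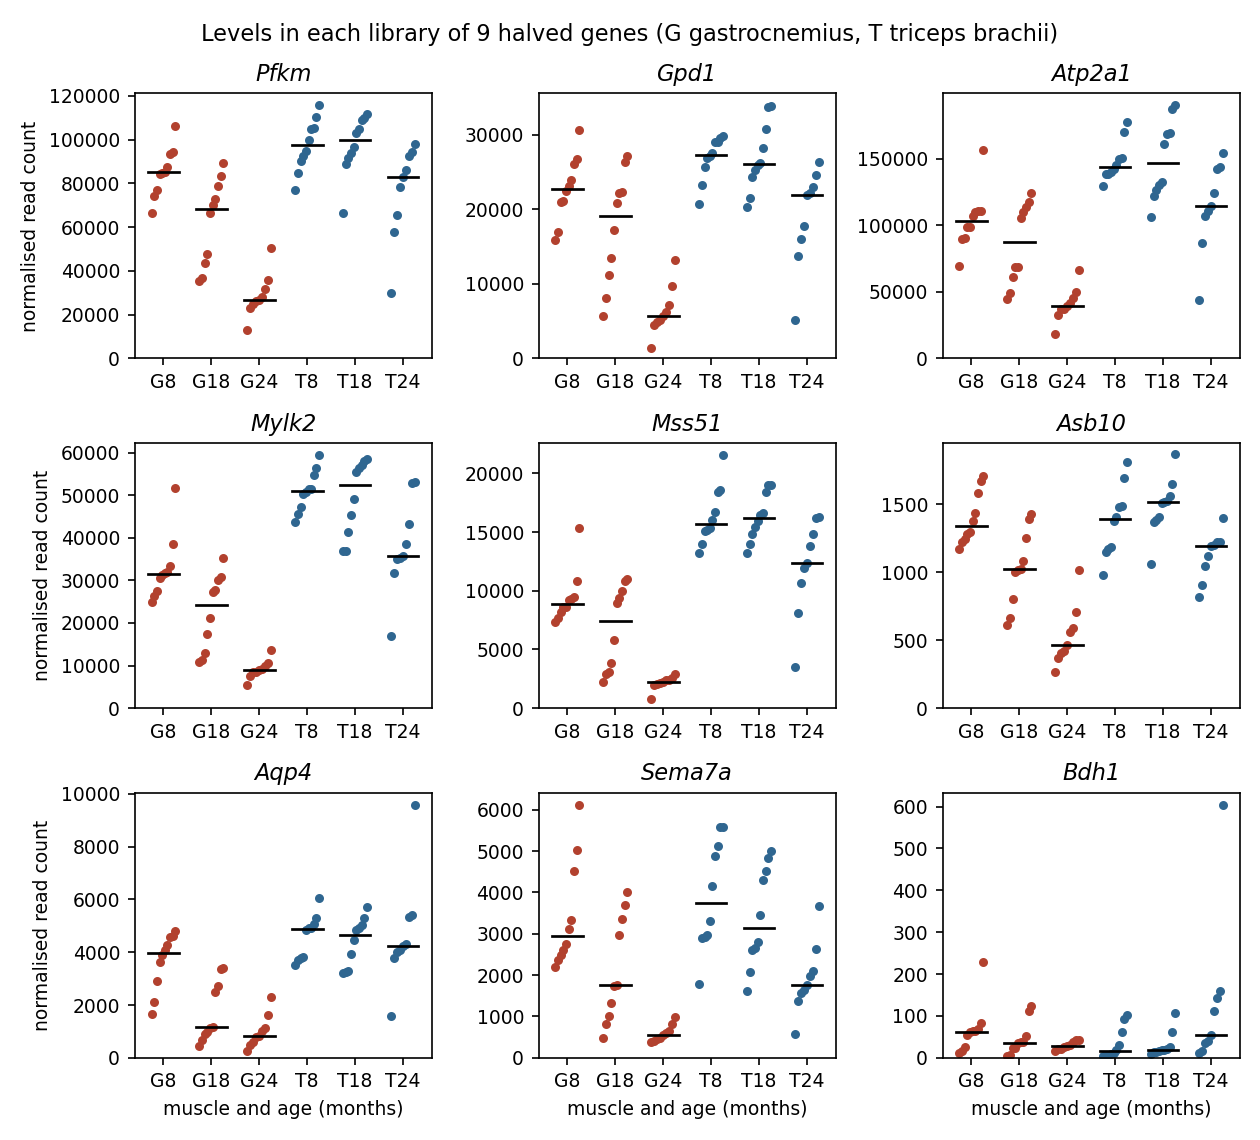
Normalised read counts of selected members in every library (y axis, linear from 0), by muscle (G gastrocnemius, T triceps brachii) and age in months, 1 point for each rat and a line at the median. Mylk2 and Mss51 at 18 months show no overlap between the muscles, while Pfkm overlaps.

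The largest falls among members with a symbol were those of AABR07022113.1 (ratio 0.104), Ubxn10 (0.171), Slc41a3 (0.174), Lmod1 (0.176), Sema7a (0.185), Lgi1 (0.190), RGD1562029 (0.202), AABR07034455.2 (0.206), Aqp4 (0.208) and St8sia5 (0.248). Among members without a symbol the lowest ratios belonged to ENSRNOG00000007603 (0.136), ENSRNOG00000000487 (0.184), ENSRNOG00000014387 (0.191), ENSRNOG00000005781 (0.199) and ENSRNOG00000014338 (0.205). AABR07022113.1 had levels of 508, 847 and 2062 in 8-month gastrocnemius, 62.8, 500 and 1221 at 18 months and 17.8, 86.9 and 194 at 24 months. In triceps brachii its 24-month levels were 58.3, 515 and 718 against 348, 782 and 1280 at 8 months. That change was not called (log2 fold change -0.90 ± 0.35, SE; adjusted p = 0.135, edgeR).

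Lmod1, a leiomodin that nucleates actin filaments and is best known from smooth muscle, had the largest 18-month difference between the muscles among the named members that were called. Its 18-month levels were 133, 517 and 1015 in gastrocnemius and 1301, 1812 and 2178 in triceps brachii, so no libraries overlapped. The log2 difference was -2.02 ± 0.22 (SE; adjusted p = 1.51e-07, edgeR), against -0.92 (adjusted p = 0.00962) at 8 months. In gastrocnemius it was 368, 864 and 1523 at 8 months and 85.4, 151 and 345 at 24 months.

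The sialyltransferase gene St8sia5 was also lower in gastrocnemius in all 10 rats at 18 months (log2 difference -0.93 ± 0.12, SE; adjusted p = 2.74e-06, edgeR), and the magnesium transporter gene Slc41a3 was lower in 7 of 10 (log2 difference -0.42 ± 0.14, SE; adjusted p = 0.0344, edgeR). For Aqp4 the difference at 18 months was -1.61 ± 0.26 (log2, SE; edgeR adjusted p = 4.8e-05), against -0.38 at 8 months (adjusted p = 0.471).

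Sema7a, a membrane-anchored semaphorin, was the named member with a symbol that fell most in triceps brachii among those called. Its levels there were 1790, 3733 and 5583 at 8 months, 1621, 3129 and 4997 at 18 months and 586, 1770 and 3668 at 24 months. The groups overlapped, and the log2 fold change from 8 to 24 months was -1.02 ± 0.29 (SE; adjusted p = 0.0383, edgeR). In gastrocnemius it went from 2191, 2937 and 6117 at 8 months through 488, 1752 and 4015 to 389, 544 and 985. At 18 months it was lower in gastrocnemius in 8 of 10 rats (log2 difference -0.86 ± 0.22, SE; adjusted p = 0.00559, edgeR).

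The other members called lower in triceps brachii were ENSRNOG00000018911 (log2 fold change -1.30), ENSRNOG00000001766 (-1.10), ENSRNOG00000002753 (-0.91), ENSRNOG00000055811 (-0.90), ENSRNOG00000011361 (-0.75), Lynx1 (-0.64), Tsc22d3 (-0.55), AABR07027388.1 (-0.49), Dmrt2 (-0.47) and Eya1 (-0.45). Those after ENSRNOG00000055811 were named after their values were seen. Among the triceps calls that were not named after their values were seen, ENSRNOG00000001766 was the single one that held with each rat left out. Its triceps brachii levels were 2750, 4037 and 5481 at 8 months, 1492, 2354 and 3166 at 18 months and 1216, 1697 and 3214 at 24 months, and its gastrocnemius levels were 3046, 4862 and 6115, then 1497, 2387 and 4477, then 755, 1405 and 2673. The difference between the muscles at 18 months was not called (log2 difference 0.10 ± 0.16, SE; adjusted p = 0.706, edgeR), and its log2 fold change in triceps brachii was -1.10 ± 0.20 (SE; adjusted p = 0.00204, edgeR).

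The 2 members called higher in triceps brachii from 8 to 24 months, ENSRNOG00000003304 and ENSRNOG00000009589, varied widely between rats. ENSRNOG00000003304 ran from 12.0 to 157 at 8 months, from 3.07 to 765 at 18 months and from 13.8 to 2740 at 24 months, and the fitted log2 rise was 3.34 ± 0.83 (SE; adjusted p = 0.0192, edgeR). Its 24-month range contained the whole 8-month range, and limma's voom gave an adjusted p of 0.353. ENSRNOG00000009589 ran from 42.2 to 270 at 8 months and from 28.5 to 2627 at 24 months. For it the fitted log2 rise was 2.68 ± 0.70 (SE; adjusted p = 0.0268, edgeR), and voom gave an adjusted p of 0.361. The next largest rises there, of Bdh1 and of ENSRNOG00000039588 (log2 fold change 1.70) and ENSRNOG00000003183 (1.69), were not called by edgeR or voom. DESeq2 called Bdh1 (adjusted p = 0.0346) and ENSRNOG00000003183 (adjusted p = 0.0437).

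Of the 5 blood markers listed only 2 had a symbol, the alpha-globin genes Hba1 and Hba2, and both were members. Their ratios were 0.470 and 0.496 in gastrocnemius and 1.21 and 1.39 in triceps brachii at 24 months. Their summed level was 2148 to 8084 in 8-month gastrocnemius, 1288 to 4030 at 18 months and 1014 to 5855 at 24 months, and both were higher in gastrocnemius than in triceps brachii at 8 months (log2 differences 0.75 and 0.76, edgeR adjusted p of 0.0422 and 0.0243). How much blood each muscle held was not measured. The reads of both genes, of the 2 Pkm identifiers and of Gapdh and Aldoa, which have near-identical copies, may have been split by the counting.

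Of the 28 members named by the rule for names (given below) and called at 18 months between the muscles, 18 kept the call whichever rat was left out. The call was lost for Slc41a3, Gpd1, Plin4, Gpt2, Nr4a1, Mybpc2, Cmya5, Pygm, Fanca and Barx2 when 1 of rats 11, 12, 13, 14, 15, 16 or 20 was left out, with an adjusted p of up to 0.119 (edgeR), and none changed sign. Lmod1, Aqp4, St8sia5, Pfkm, Mss51, Cacng7, Dhrs7c, Atp2a1, Kcna7, Mylk2, Asb10 and Myoz1 kept it under every setting tried. Of the 7 calls in triceps brachii from 8 to 24 months named by that rule, 6 were lost with some rat left out, with an adjusted p of up to 0.139 (edgeR). Called members named outside that rule, such as Eya1 and Lynx1, were not followed in this way.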

How the data were processed

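Male Wistar rats gave gastrocnemius and triceps brachii RNA at 3 ages. Per the study's methods the authors made TruSeq libraries, aligned paired reads with STAR (2.3.0e and Rnor_6.0 in the submitters' processing notes, which also name CASAVA 1.8), dropped poorly mapped reads and used HTSeq in union mode to count the others per gene. The deposited table holds whole-number counts for 32545 Ensembl genes in 58 libraries, of which 8985 had no read in any library. The HTSeq strand option and the Ensembl release are not given in the sources used here, so values of overlapping and antisense genes are uncertain.

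Levels were the deposited counts divided by median-of-ratios size factors over the 13424 genes with a read in all libraries (factors 0.502 to 3.54). Tests used R 4.3.3 and edgeR 4.0.16 (quasi-likelihood F test, TMM factors) on the 14947 genes that reached 20 reads in any 1 library, with Benjamini-Hochberg adjustment over all of them, and calls were made at an adjusted p under 0.05, without a fold limit. Age comparisons used 1 mean for each of the 6 groups. Comparisons between the muscles used the rat as a block, since both muscles came from the same animal. After removal of group means the muscles of a rat correlated with a mean of 0.315, 0.184 and 0.281 at 8, 18 and 24 months, over 0.1 in 9, 7 and 8 rats. The fits were also run on simulated counts with known changes. The simulated libraries carried no rat effect, so they could not test the rat block or the correlation between muscles. In the age comparisons p-values measure the spread between rats within groups, with both muscles of a rat treated as independent. Between the muscles they measure how the difference within a rat varies from rat to rat. No libraries were identical.

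The members and gene lists were chosen with earlier results of these data known. Symbols were taken from the study's supplementary table, and 199 of 223 were found in RefSeq. Where the study's lists give l for 1 or the reverse, 4 symbols were matched after exchange. Named were the 10 members with a symbol and the 5 without that had the lowest 24-month ratio, up to 4 members of each list in order of that ratio, the 5 earliest and 5 latest by 18-month ratio, the 5 largest falls and rises in triceps brachii, and the genes nearest the threshold. Alternatives were DESeq2 1.42.0, limma 3.58.1 voom, other factors, filters, blocks and fold limits, and leaving out each rat. Leaving out rats 41 and 42, or rats 15 and 20, and library totals for the comparisons between muscles, were added after seeing the data. One gene that the rule for names would give is not reported here.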

Additional observations from a re-analysis of the deposited data

Results flagged for a closer look

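In 26 of 204 groups of libraries examined (32 genes and 2 measures over all members) the highest or lowest rat lay far from the others. The cut-offs, Dixon's for the gap over the range, hold for independent, normally distributed values. Read counts need not be so distributed and the genes share libraries, so no chance rate is set beside this count. Gastrocnemius of rat 47 at 24 months was flagged 4 times, always as the highest, for Mlxipl (1095), Kcna7 (2137), Nrtn (82.9) and RGD1562029 (37.4 normalised reads). Gastrocnemius of rat 4 at 8 months was the highest for Atp2a1 (156657), Mylk2 (51754) and Mss51 (15382), and gastrocnemius of rat 41 at 24 months was the lowest for Mss51 (759).

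In 24-month triceps brachii rat 42 was the highest for Bdh1 (603) and the lowest for Lmod1 (568), and rat 46 was the highest for Nr4a1 (9556) and Aqp4 (9570). In 8-month triceps brachii rat 6 was the highest for Kcna7 (4822) and Plin4 (5212), rat 7 for Myoz1 (123706) and rat 8 for Nrtn (59.0). In 18-month triceps brachii rat 17 was the lowest for Pfkm (66587), rat 13 the highest for Fanca (678) and rat 20 the highest for RGD1562029 (86.1). Bdh1 in 8-month gastrocnemius was highest in rat 2 (228).

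The sparse genes ENSRNOG00000003304 and ENSRNOG00000009589 each had 1 rat far above the others in several groups. For ENSRNOG00000003304 these were gastrocnemius of rat 7 at 8 months (788) and rat 16 at 18 months (383), and triceps brachii of rat 17 at 18 months (765) and rat 44 at 24 months (2740). For ENSRNOG00000009589 they were gastrocnemius of rat 7 at 8 months (635) and rat 16 at 18 months (499).

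By the interaction test 251 of the 311 members changed differently with age in the 2 muscles, and that test contains the contrast that chose them.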

How the results depend on the processing

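Calls in triceps brachii depended most on the processing. Brackets give the share of all genes tested under the same setting, where it was worked out. From 8 to 24 months the count called lower, 11 (0.636%), was 19 with DESeq2 (1.17%), 4 with no filter on low counts (0.267%) and 36 with a replicate block by label number (1.82%). It was 3 with a fold limit of 2, 1 without rats 41 and 42 (0.0471%), and 2 to 20 with each rat left out, lowest without rat 7 (0.261%). The count called higher, 2 (2.08%), was 0 with voom (0.756%), 7 with DESeq2 (3.12%), 8 with library totals (5.37%) and 4 with the replicate block (2.87%). It was 0 without rats 41 and 42 (0.430%) and 0 to 7 with each rat left out. From 8 to 18 months the lower count of 0 was 1 with DESeq2 and 1 with the replicate block (0 to 1 with a rat left out), and the higher count of 1 was 0 with voom and 2 with the block (0 to 1 with a rat left out). From 18 to 24 months the lower count of 0 was 1 with DESeq2 and 1 with the block (0 to 1 with a rat left out), and the higher count of 0 was 1 with DESeq2 and 0 to 4 with a rat left out.

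In gastrocnemius from 8 to 18 months, 39 lower (1.22% of all genes tested) became 25 with no filter (0.505%) and 16 with only the libraries of the muscle (0.669%). The count was 4 with a fold limit of 2, 4 without rats 15 and 20 (0.234%) and 18 to 52 with each rat left out. From 18 to 24 months 243 lower became 80 with the fold limit, and 0 higher became 2 with library totals. Between the muscles at 18 months, 154 lower (8.48%) became 96 with no animal block (95 of them shared, 5.96% of all genes) and 88 without rats 15 and 20 (6.08%). Here 3 higher (9.53%) became 1 with no animal block (7.80%) and 1 to 11 with each rat left out. At 8 months 18 lower and 21 higher became 5 and 7 with no animal block, 6 to 25 and 7 to 30 with each rat left out. The count of 251 for the interaction stayed within 1.5 times in all settings run. The rule itself gave 105 members with library totals in place of size factors, all among the 311, and 245 to 354 with each rat of 8 or 24 months left out. Library totals moved the median log2 change of all genes to 0.15 in triceps brachii from 8 to 24 months, where the members' median was then -0.17, and to 0.11 between the muscles at 18 months, with the members at -0.34. The causes of these differences were not tested.

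Equal label numbers at different ages are different rats. Gastrocnemius pairs of equal number had mean correlations of 0.238 (8 and 18 months), 0.032 (8 and 24) and 0.058 (18 and 24). Of these pairs 7 of 10, 4 of 9 and 4 of 9 correlated over 0.1. In triceps brachii the means were 0.102, -0.031 and -0.029, with 5 of 10, 3 of 9 and 3 of 9 over 0.1. Both muscles of a rat at 18 months had a mean of 0.184. Whether label number stands for a shared effect was not tested, and the block by label number is given here alone. Of the 231 values under other settings of called genes named by the rule for names, 181 kept the call, 50 did not and 0 reversed. Of 1015 with a rat left out 918 kept it, 97 did not and 0 reversed.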

Other observations

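Further members without overlap between the muscles at 18 months, named after their values were seen, include Asb11 (log2 difference -0.84, edgeR adjusted p = 0.000102), the lysine methyltransferase gene Smyd2 (-0.93), and Fkbp4 (-0.50), a cochaperone gene of HSP90. The neurotrophin gene Ntf4 was lower in gastrocnemius in all 10 rats at 18 months (log2 difference -0.74), with an 18-month ratio of 0.601, and it fell from 8 to 18 months in gastrocnemius (edgeR adjusted p = 0.0154). The 3 members called higher in gastrocnemius at 18 months were ENSRNOG00000049388 (log2 difference 1.18), ENSRNOG00000013196 (0.60) and Mettl11b (0.48), an N-terminal methyltransferase gene, and Mettl11b was also higher there at 8 months (0.80).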
